A study of Rattus norvegicus with 8 samples.

Results

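The long non-coding RNAs (lncRNAs) described here are those that lie close to a named gene without overlapping one. A lncRNA row was taken when it overlapped no gene row with an established name but lay within 50 kb of one on the Rnor_6.0 rat assembly, with strand ignored. Clone, provisional-locus and similar placeholder names did not count as names, and 3 assembled loci were left out. The rule used positions and names only and gave 3104 of 14625 lncRNA rows, or 21.2%. A further 8544 rows overlapped a named gene, 2843 lay farther than 50 kb from any, and 134 belonged to the loci left out.

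The libraries came from bone within 1 mm of titanium implants in both femoral shafts of male Wistar rats, 12 to 13 weeks old, on day 10 after implantation. The hyperlipidemic group of 4 libraries received a high-fat diet for 8 weeks and the normal group of 4 libraries received a normal diet for the same time; muscle was removed from the samples of both. RNA was depleted of ribosomal RNA and made into cDNA by the dUTP method. The labels do not say whether each library is a separate animal, so the p-values reflect no more than the spread among these 8 libraries, which may be technical. The unit is FPKM, mapped fragments scaled by transcript length and by the total of the library, as deposited.

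LncRNAs are transcripts with no evident protein product. One that sits between genes can act on its neighbours through chromatin, through the act of transcription or through a shared promoter, and others act far from where they are made or have no known role. An assembled intergenic transcript can also be an unannotated extension of the neighbouring gene or a host of small RNAs. Bone around an implant holds bone-forming and bone-resorbing cells together with marrow, so such transcripts can come from any of these cells.

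The sequences below show what lies next to the members. The promoters are those of nearest genes whose 5′ side faces a member with one of the largest changes within 5 kb, and of Cenpv, next to the only member past the test's threshold. Each is 300 bases from RefSeq on the GRCr8 assembly, 250 before and 50 after the gene's start, read 5′ to 3′ on the strand of the gene. Capitals mark GGGCGG or its reverse complement; TATAAA and CCAAT were searched on both strands too and are not in these windows. The Ssh1 promoter lies at chr12:48281506-48281805 on the plus strand, that of Ten1 at chr10:101929962-101930261 on the plus strand, and that of Cenpv at chr10:47727630-47727929 on the minus strand.
Ssh1: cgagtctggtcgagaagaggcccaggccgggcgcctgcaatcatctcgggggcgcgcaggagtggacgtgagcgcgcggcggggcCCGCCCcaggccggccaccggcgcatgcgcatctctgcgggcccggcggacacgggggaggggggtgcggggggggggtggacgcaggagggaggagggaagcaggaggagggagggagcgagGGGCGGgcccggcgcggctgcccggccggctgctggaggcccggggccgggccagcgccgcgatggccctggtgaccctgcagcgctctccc
Ten1: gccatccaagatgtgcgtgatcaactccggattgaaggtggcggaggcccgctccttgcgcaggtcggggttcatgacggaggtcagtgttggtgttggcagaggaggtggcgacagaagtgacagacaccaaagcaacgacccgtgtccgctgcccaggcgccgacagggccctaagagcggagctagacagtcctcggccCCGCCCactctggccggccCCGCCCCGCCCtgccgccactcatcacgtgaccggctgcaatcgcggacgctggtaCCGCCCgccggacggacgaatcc
Cenpv: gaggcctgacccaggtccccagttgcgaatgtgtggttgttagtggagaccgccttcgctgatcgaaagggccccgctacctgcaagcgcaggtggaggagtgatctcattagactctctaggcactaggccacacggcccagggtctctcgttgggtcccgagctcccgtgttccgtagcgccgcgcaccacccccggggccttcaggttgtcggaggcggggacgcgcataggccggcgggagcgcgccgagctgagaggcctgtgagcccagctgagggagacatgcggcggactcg

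GGGCGG occurs in 33.1% of the 33469 RefSeq promoters of this length, CCAAT in 37.5% and TATAAA in 14.2%, each counted on both strands. The Ssh1 window holds GGGCGG 2 times and the Ten1 window 4 times, of which 2 matches overlap by 1 base, whereas the Cenpv window has no match. The 3 windows are 79.3% (Ssh1), 67.0% (Ten1) and 66.7% (Cenpv) G or C, against a median of 51.7% over all promoters. A match is a description of the letters and not a binding site.

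Of the members, 76 had a microRNA gene as their nearest named gene, 32 microRNA genes in all, and RefSeq lists a mature sequence for 30 of these 32. The mature forms are shown for the pair of microRNA genes with the most members, Mir30c2 with 10 and Mir29b1 with 8, and for Mirlet7c-2 with 6 and Mirlet7d with 1, whose 5p forms share a seed. Capitals mark the seed, bases 2 to 8.
miR-30c-5p: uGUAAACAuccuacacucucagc
miR-30c-2-3p: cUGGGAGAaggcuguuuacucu
miR-29b-3p: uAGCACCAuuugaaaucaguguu
miR-29b-1-5p: uUUCAUAUggugguuuagauuu
let-7c-5p: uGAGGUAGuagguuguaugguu
let-7d-5p: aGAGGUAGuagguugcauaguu

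MicroRNAs pair with messenger RNAs through the seed, and many are cut from long primary transcripts that annotation can list as lncRNAs. The let-7 forms have the seed GAGGUAG, and the seeds of the other 4 sequences shown differ from it and from each other. In RefSeq the seed of miR-30c-5p occurs in 4 mature forms, that of miR-29b-3p in 3 and that of miR-30c-2-3p in 2. GAGGUAG occurs in 9 and the seed of miR-29b-1-5p in 1. The levels measured here are those of the long transcripts, not of the mature microRNAs.

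Among the members, 2760 were transcripts assembled from these libraries, at 2130 loci, and 344 were Ensembl transcripts. Of the assembled loci 1752 held 1 member and 378 held more, up to 13, so many members share sequence and are not independent. The median member spanned 3245 bp and lay 10669.5 bp from its nearest named gene. The closest lay 6 bp away, the farthest inside the window 49910 bp and the nearest lncRNA outside it 50020 bp. Distances of up to 1 kb held 410 members, over 1 to 5 kb 686, over 5 to 20 kb 922, and over 20 to 50 kb 1086. Where the orientation of the nearest gene could be taken from RefSeq, 1073 members lay on its 5′ side and 745 on its 3′ side. The strand of the lncRNAs themselves was not used here.

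The nearest genes numbered 1810. Ephb4, a receptor of ephrin B ligands, was the nearest gene of 14 members at 14 loci, and Fbp1, an enzyme of gluconeogenesis, of 14 members at 4 loci. Kcnrg, a regulator of potassium channels, was nearest to 12 members at 2 loci and Fkbp5, a chaperone of the glucocorticoid receptor, to 10 members at 4 loci. Of all members, 601 belonged to an assembled locus that also has a row in the gene table, and for 230 of these that row was the nearest named gene itself. Counted separately, and in part the same members, 712 overlapped a gene row with a placeholder name.

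Most members were low and were not listed in every library. The median of their mean levels was 1.03 FPKM, against 1.53 FPKM for lncRNAs that overlap a named gene and 0.984 FPKM for those farther away. Only 65 members averaged 10 FPKM or more and 21 averaged 100 FPKM or more. A value above 0 in all 8 libraries was found for 393 members, or 12.7%, against 19.99% of the overlapping and 13.0% of the farther lncRNAs. A further 521 members, or 16.8%, were above 0 in 1 library alone, against 5.91% of the overlapping and 16.4% of the farther lncRNAs.

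Normal replicates 1 and 4 stood apart in the lncRNA table. They listed 71.0% and 71.6% of the members at 0, whereas the other normal libraries listed 27.3% (replicate 2) and 47.5% (replicate 3). The hyperlipidemic libraries listed 30.3%, 23.9%, 49.5% and 40.3% of the members at 0. The groups overlapped in this measure, because normal replicates 2 and 3 fell inside the hyperlipidemic range. In the gene table normal replicates 1 and 4 listed 30.7% and 35.6% of rows at 0, and hyperlipidemic replicate 3, at 29.8%, was close to normal replicate 1. The values are FPKM without read counts: the depth of a library and the floor below which a transcript is missed are unknown, and a value of 0 says only that the transcript is listed at 0. The counts of the test, the median change and the log2 changes of some named lncRNAs are also given without these libraries. Other log2 changes of lncRNAs, the counts of values above 0, the list totals, the microRNA neighbours and the correlations are given with all 8.

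**Figure D1:**
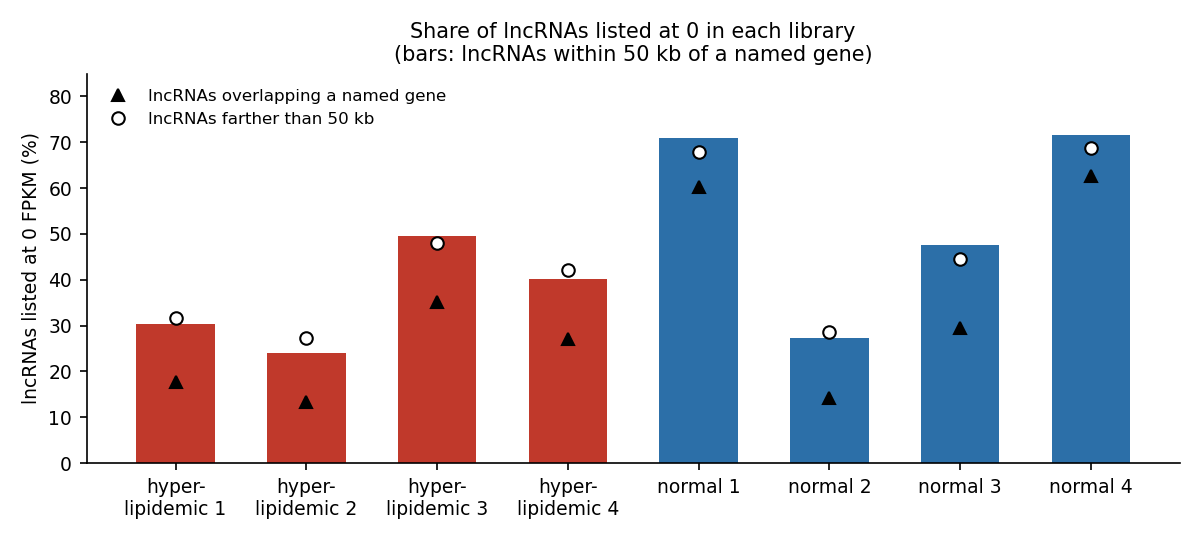
Share of lncRNAs listed at 0 FPKM (y axis, percent) in each of the 4 hyperlipidemic and 4 normal libraries (x axis); bars are the lncRNAs within 50 kb of a named gene, triangles those overlapping one and circles those farther than 50 kb. Normal replicates 1 and 4 list 71.0% and 71.6% of the members at 0, above the 23.9% to 49.5% of the other 6 libraries.

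The tissue label was checked against marker genes in the gene table. Osteoblast markers, of which 7 of 8 were in the table, summed to 914 to 1659 FPKM in hyperlipidemic and 1971 to 3142 FPKM in normal libraries. Osteocyte markers, 4 of 4, overlapped between groups, at 96.5 to 126 FPKM in hyperlipidemic and 107 to 199 FPKM in normal libraries. Osteoclast markers, 6 of 6, summed to 144 to 296 FPKM in hyperlipidemic and 318 to 574 FPKM in normal libraries. The osteoblast and osteoclast lists were present in every library, and their sums did not overlap between groups. Chondrocyte markers (4 of 5) ran the other way, at 8.65 to 72.9 FPKM in hyperlipidemic and 0.140 to 3.25 FPKM in normal libraries, and adipocyte markers (6 of 6) at 75.3 to 328 and 12.7 to 67.3 FPKM. Megakaryocyte markers (5 of 5) summed to 152 to 330 FPKM in hyperlipidemic and 19.1 to 168 FPKM in normal libraries. B cell markers (6 of 6) summed to 26.7 to 66.8 FPKM in hyperlipidemic and 70.3 to 90.8 FPKM in normal libraries. T and NK cell markers (5 of 5) overlapped, at 54.2 to 73.7 FPKM in hyperlipidemic and 63.8 to 146 FPKM in normal libraries. Skeletal muscle markers (6 of 6) summed to 1.85 to 60.2 FPKM in hyperlipidemic and 0.193 to 21.8 FPKM in normal libraries, with Mylpf at 0 in all normal libraries. In bulk bone, fewer cells of a type and less RNA per cell cannot be told apart, and the part of these cell types in the lncRNA results was not tested.

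Which of these lncRNAs differ between hyperlipidemic and normal bone was asked with limma on log2(FPKM + 0.1) over all lncRNAs with a mean of at least 0.1 FPKM, a filter that 2942 of the 3104 members passed. P-values were adjusted by the Benjamini-Hochberg method over all 14233 lncRNAs tested, and an adjusted p below 0.05 counted as a call. In limma, 0 members were called higher and 1 was called lower in hyperlipidemic bone, against 0.0562% higher and 0.0281% lower of all lncRNAs tested. Of the 8 lncRNAs called higher and the 4 called lower, 5 and 1 belonged to the loci left out. Overlapping lncRNAs held 3 and 1 of these calls, and those farther than 50 kb held 0 and 1. At an unadjusted p under 0.05, 157 members were higher and 33 lower, which is 5.34% and 1.12% of the members tested, near the 6.02% and 1.35% of all lncRNAs. The 4 values of each group did not overlap for 77 members that were higher and 22 that were lower, or 2.62% and 0.748%, near the 2.93% and 0.766% of all lncRNAs. These shares of the members lie near the shares of lncRNAs in general.

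More members leaned up than down, as did lncRNAs as a whole. The log2 change of hyperlipidemic over normal was above 0 for 2026 of the 2942 members tested, or 68.9%, beside 69.0% of all lncRNAs. Its median was 0.84 for the members and 0.78 for all lncRNAs. Without normal replicates 1 and 4 the medians were 0.13 and 0.06, and the counts at an unadjusted p under 0.05 were 56 higher and 68 lower. For the 393 members above 0 in all 8 libraries the median was 0.08. Quantile normalization of the libraries gave medians of 0.27 for the members and 0.26 for all lncRNAs, and median-of-ratios scaling 0.75 and 0.68. Single members below are to be read against that general shift.

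**Figure D2:**
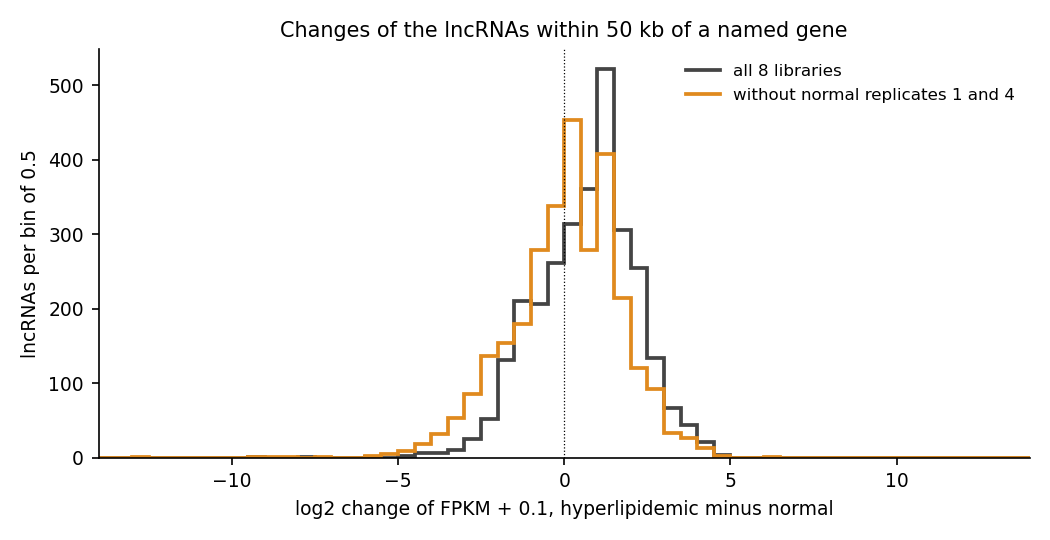
Number of lncRNAs within 50 kb of a named gene (y axis) by log2 change of FPKM + 0.1 in hyperlipidemic over normal libraries (x axis, bins of 0.5), with all 8 libraries (dark line) and without normal replicates 1 and 4 (orange line). With all 8 libraries the median is 0.84, and without these 2 libraries it is 0.13.

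The call fell on 1 transcript of a locus with several. MSTRG.18208.6, at chr10:48880240-48881890, lay 19338 bp from Cenpv, a centromere protein, on its 5′ side, and 21650 bp from Trpv2, a cation channel. It was listed at 0 in hyperlipidemic replicates 1, 2 and 4 and at 0.000155 FPKM in replicate 3, against 0.428, 84.1, 37.6 and 94.7 FPKM in the normal libraries. All 4 normal libraries were above all hyperlipidemic ones, normal replicate 1 by less than 1 FPKM. The log2 change was -7.64 with a standard error of 1.36 (limma, adjusted p = 0.0329), and its size depends on the 0.1 added to each value. The direction stayed in 18 of 18 alternatives and the call in 4 of 18, and of the 8 fits that left out a library it held only without normal replicate 1; without normal replicates 1 and 4 the log2 change was -9.14 (limma, adjusted p = 0.286).

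Other transcripts of the same locus had differences in both directions. MSTRG.18208.7 was listed at 0 in all hyperlipidemic libraries and at 1.86, 1.94, 1.34 and 1.26 FPKM in the normal libraries. MSTRG.18208.8 had 12.9, 14.2, 7.37 and 15.5 FPKM in hyperlipidemic and 97.9, 33.1, 30.5 and 33.1 FPKM in normal libraries, again without overlap. In contrast, MSTRG.18208.2 had 123, 24.9, 216 and 145 FPKM in hyperlipidemic and 2.41, 30.2, 11.3 and 14.7 FPKM in normal libraries, and only hyperlipidemic replicate 2 fell inside the normal range. MSTRG.18208.1 had 36.2, 22.7, 187 and 293 FPKM in hyperlipidemic libraries, all above the 16.5, 21.1, 15.5 and 10.3 FPKM of the normal libraries. MSTRG.18208.5 had 16.9, 14.7, 77.8 and 103 FPKM in hyperlipidemic and 0, 50.8, 0 and 46.2 FPKM in normal libraries, and the groups overlapped (limma, log2 change 4.10, adjusted p = 0.630). The remaining transcripts, 3 and 4, overlapped between groups too, with log2 changes of 0.79 and 0.33. The log2 changes were -1.81 for transcript 8, 3.22 for transcript 2 and 2.41 for transcript 1, and none of these 3 passed the adjusted threshold (limma, adjusted p from 0.167 to 0.424).

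Summed over its 8 transcripts the locus did not pass the test. The sum was 257, 127, 503 and 578 FPKM in hyperlipidemic and 146, 243, 139 and 216 FPKM in normal libraries, and the groups overlapped (limma on summed FPKM, log2 change 0.79, adjusted p = 0.684). The gene-table row of the locus, a clone-named gene, showed a log2 change of 0.93 (limma, adjusted p = 0.436). RefSeq lists Ubb, a polyubiquitin gene, and the small nucleolar RNA genes Snord49a, Snord49b and Snord65 between Cenpv and Trpv2. The member called is therefore 1 of 8 overlapping assembled forms, and how reads were divided among them was not tested. Neither flanking gene was called. Trpv2 had 4.26, 4.01, 2.04 and 3.14 FPKM in hyperlipidemic and 10.3, 7.51, 4.83 and 4.33 FPKM in normal libraries, without overlap (limma, log2 change -0.79, adjusted p = 0.335).

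**Figure D3:**
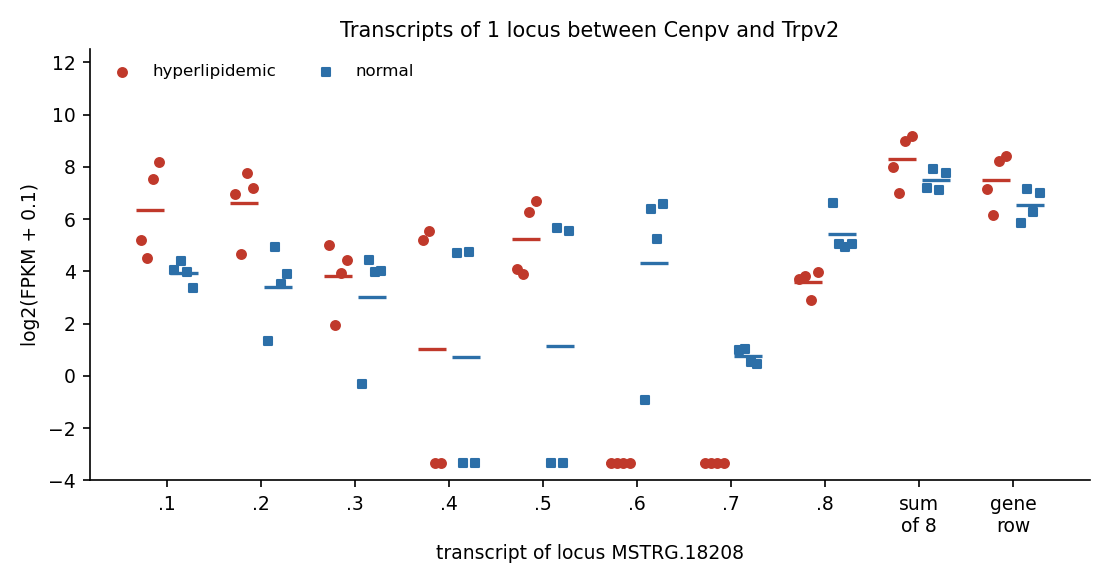
Levels of the 8 transcripts of locus MSTRG.18208, of their sum and of the gene-table row of the locus (x axis) as log2(FPKM + 0.1) (y axis); points are libraries, circles hyperlipidemic and squares normal, and lines are group means. Transcripts 6, 7 and 8 have lower and transcripts 1 to 5 higher means in hyperlipidemic libraries, and the sums overlap.

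The same split was seen at 1 further locus, named here after its values were seen. Of 171 loci with a member at an unadjusted p under 0.05, 7 had 2 or more such members and 2 had them in both directions. These counts cover members only, and how common such a split is among all lncRNAs was not tested. Near Sprtn, a protease that repairs DNA-protein crosslinks, MSTRG.62738.1 had 0.284, 0.902, 0 and 0 FPKM in hyperlipidemic and 2.65, 0.792, 3.94 and 3.53 FPKM in normal libraries. MSTRG.62738.2, from nearly the same span, had 4.98, 3.37, 2.60 and 4.49 FPKM in hyperlipidemic and 0, 4.47, 0 and 0 FPKM in normal libraries. Normal replicate 2 fell inside the hyperlipidemic range for both transcripts. When FPKM were summed per locus, 0 of 2319 member loci were called higher and 3 lower, with 141 and 21 at an unadjusted p under 0.05 (limma). Of all 10736 loci tested, 0.0186% were called higher and 0.0466% lower, and 6.15% and 1.22% were past the unadjusted p.

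The best separated member among those well above 0 lay in the lysozyme gene region. ENSRNOT00000086821, at chr7:60282326-60283912, lay 3619 bp from the 3′ side of Yeats4, a reader of acetylated histones, and 32133 bp from Lyc2, a lysozyme gene. It had 167, 90.1, 127 and 167 FPKM in hyperlipidemic and 389, 568, 429 and 721 FPKM in normal libraries. Every hyperlipidemic library was below every normal one, and the means were 138 ± 36.9 FPKM and 527 ± 151 FPKM (SD, n = 4 each). The log2 change was -1.93 with a standard error of 0.42, and it did not pass the adjusted threshold (limma, adjusted p = 0.134); the adjusted p ranged from 0.00160 with 0.01 added to each value to 0.842 without normal replicates 1 and 4, where the log2 change was -1.88.

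Its neighbours differed from each other. Lyc2, a secreted enzyme of macrophages and granulocytes that breaks bacterial walls, had 122, 78.8, 92.6 and 122 FPKM in hyperlipidemic and 950, 618, 185 and 292 FPKM in normal libraries. The groups did not overlap for Lyc2 either, and its log2 change on FPKM + 1 was -2.04 (limma, adjusted p = 0.0661 over all genes), or -1.72 without normal replicates 1 and 4. Yeats4 had 16.9, 14.5, 12.7 and 15.4 FPKM in hyperlipidemic and 0, 13.8, 14.7 and 19.7 FPKM in normal libraries, where the groups overlapped. Macrophage markers (5 of 5) summed to 116 to 158 FPKM in hyperlipidemic and 98.4 to 190 FPKM in normal libraries, and neutrophil markers (5 of 5) to 8795 to 11536 and 8761 to 11087 FPKM, so the sums of both lists overlapped between groups.

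**Figure D4:**
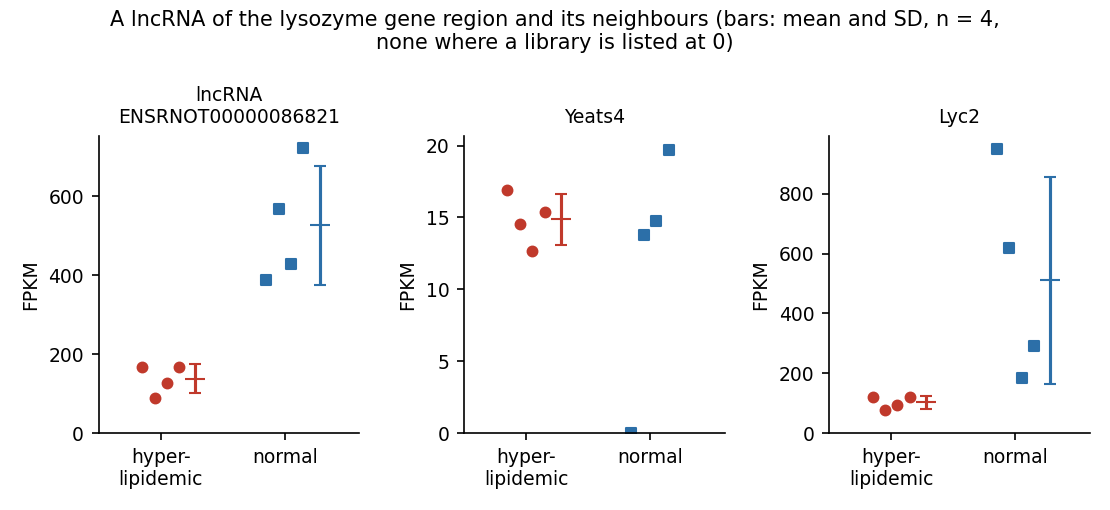
FPKM (y axis) of the lncRNA ENSRNOT00000086821 and of the neighbouring genes Yeats4 and Lyc2 in the 4 hyperlipidemic (circles) and 4 normal (squares) libraries; bars are the mean and SD, drawn where no library is listed at 0. The lncRNA and Lyc2 do not overlap between groups, with the lncRNA at 90.1 to 167 FPKM in hyperlipidemic and 389 to 721 FPKM in normal libraries.

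Further members low in hyperlipidemic bone lay next to genes that were not called. MSTRG.124848.1, 348 bp from Copb2, a coatomer subunit of transport vesicles, had 19.1, 18.4, 19.5 and 24.0 FPKM in hyperlipidemic and 238, 49.6, 53.9 and 87.8 FPKM in normal libraries. The groups did not overlap, normal replicate 1 stood far above the other normal libraries, and the log2 change was -2.10 (limma, adjusted p = 0.270), or -1.36 without normal replicates 1 and 4. Copb2 itself had 11.0, 7.20, 11.4 and 7.60 FPKM in hyperlipidemic and 9.25, 7.97, 9.07 and 8.12 FPKM in normal libraries, with full overlap. MSTRG.89976.1, between Ezh2, a histone methyltransferase, and Zfp786, a zinc finger gene 42329 bp away, had 8.70, 14.6, 4.18 and 15.8 FPKM in hyperlipidemic and 219, 14.7, 63.9 and 236 FPKM in normal libraries. Normal replicate 2 fell inside the hyperlipidemic range, and the log2 change of -3.11 (limma, adjusted p = 0.211) was -1.67 without normal replicates 1 and 4.

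The other members with the lowest log2 changes at a mean of at least 1 FPKM had mostly low values in the hyperlipidemic libraries. MSTRG.3826.12, near Lilrc2, a gene of the leukocyte immunoglobulin-like receptor family, had 0, 0.306, 0.0429 and 0.00960 FPKM in hyperlipidemic and 12.3, 3.72, 1.64 and 2.54 FPKM in normal libraries. It was assembled in the locus of another named gene, Pirb. The groups did not overlap (limma, log2 change -4.60, adjusted p = 0.312), and the log2 change was -4.02 without normal replicates 1 and 4. MSTRG.29236.1, 32376 bp from the lysosomal enzyme gene Gusb, had 0.0135, 0, 0.349 and 0.744 FPKM in hyperlipidemic libraries, all below the 23.9, 0.858, 3.02 and 3.07 FPKM of the normal libraries (limma, log2 change -3.92, adjusted p = 0.522), and the log2 change was -2.76 without normal replicates 1 and 4.

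MSTRG.24768.4, near Ift57, a component of transport within cilia, had 0.239, 0.0418, 7.44 and 0 FPKM in hyperlipidemic and 20.3, 26.2, 5.18 and 1.61 FPKM in normal libraries, and hyperlipidemic replicate 3 lay above 2 normal libraries. The log2 change was -4.26 (limma, adjusted p = 0.428), or -4.76 without normal replicates 1 and 4. With array quality weights it was called lower, with a log2 change of -5.61 (limma, adjusted p = 0.0156).

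The members with the highest log2 changes were listed at or near 0 in normal replicates 1 and 4. MSTRG.30291.1, 1492 bp from the 5′ side of Ssh1, a phosphatase that activates the actin-severing protein cofilin, had 5.47, 2.00, 7.37 and 0.932 FPKM in hyperlipidemic and 0, 0.0616, 0 and 0 FPKM in normal libraries. All hyperlipidemic libraries were above all normal ones, and the log2 change was 4.77 (limma, adjusted p = 0.367), or 4.60 without normal replicates 1 and 4. Ssh1, whose promoter is shown above, had 7.08, 5.41, 4.52 and 6.99 FPKM in hyperlipidemic and 7.51, 5.40, 1.56 and 3.86 FPKM in normal libraries, which overlapped.

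MSTRG.24912.1, 28812 bp from the 5′ side of Dzip3, an RNA-binding ubiquitin ligase, had 5.61, 2.35, 8.79 and 2.33 FPKM in hyperlipidemic and 0, 0.655, 0 and 0 FPKM in normal libraries (limma, log2 change 4.65, adjusted p = 0.297). MSTRG.61515.1, 159 bp from Phlpp2, a phosphatase that acts on Akt, had 3.00, 0.817, 11.9 and 5.32 FPKM in hyperlipidemic and 0, 0.699, 0 and 0 FPKM in normal libraries (limma, log2 change 4.46, adjusted p = 0.424). Neither overlapped between groups, although for the member near Phlpp2 hyperlipidemic replicate 2 stood only just above normal replicate 2. Without normal replicates 1 and 4 the log2 changes were 3.92 near Dzip3 and 3.71 near Phlpp2. MSTRG.22465.2, 2779 bp from the 5′ side of Ten1, a subunit of the telomere-binding CST complex, had 14.98, 7.74, 2.89 and 11.5 FPKM in hyperlipidemic and 0, 12.2, 0 and 0 FPKM in normal libraries, and normal replicate 2 fell inside the hyperlipidemic range. Its log2 change was 4.59 (limma, adjusted p = 0.424), or 2.85 without normal replicates 1 and 4.

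MSTRG.52489.5, 12265 bp from Acot13, an acyl-CoA thioesterase, had 11.5, 4.51, 8.12 and 5.88 FPKM in hyperlipidemic and 0, 1.18, 1.65 and 0 FPKM in normal libraries. The groups did not overlap, and the log2 change was 4.21 (limma, adjusted p = 0.276), or 2.26 without normal replicates 1 and 4. This member was assembled in the locus of a gene with a placeholder name, and RefSeq lists C17h6orf62 between Acot13 and Gmnn. Acot13 had 2.16, 3.501, 2.63 and 0.271 FPKM in hyperlipidemic and 0, 1.33, 2.14 and 0 FPKM in normal libraries, which overlapped. MSTRG.43565.13, near Kcnrg, had 2.101, 0, 16.9 and 11.7 FPKM in hyperlipidemic and 0.0819, 1.60e-05, 0 and 0 FPKM in normal libraries, and hyperlipidemic replicate 2 fell among the normal values. The log2 change was 4.47 (limma, adjusted p = 0.583), or 4.69 without normal replicates 1 and 4. None of the named nearest genes of these higher members was called (limma, adjusted p from 0.404 to 0.932 for the 6 that passed the gene filter: Ten1, Dzip3, Ssh1, Phlpp2, Acot13 and Trnau1ap).

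A set of 13 members was above 0 in all 4 hyperlipidemic and listed at 0 in all 4 normal libraries, and 1 member, MSTRG.18208.7, showed the reverse. These are 0.419% and 0.0322% of the members, beside 0.328% and 0.0957% of all lncRNAs. Of the 13, the one whose lowest hyperlipidemic value was highest was MSTRG.102262.5, 524 bp from Trnau1ap, which takes part in making selenoproteins; it had 2.14, 2.51, 3.78 and 3.97 FPKM in hyperlipidemic libraries (limma, adjusted p = 0.289). RefSeq lists the small nucleolar RNA genes Snora61 and Snord99 between Rab42 and Trnau1ap, the genes on each side of it. MSTRG.31790.1, 34368 bp from Cxcr4, the chemokine receptor that holds blood stem cells in marrow, had 0.536, 0.0889, 3.32 and 2.16 FPKM in hyperlipidemic libraries (limma, adjusted p = 0.662). MSTRG.59980.1, 10475 bp from Irx5, a homeobox gene, had 1.14, 0.737, 4.02 and 0.0876 FPKM in hyperlipidemic libraries (limma, adjusted p = 0.662), and RefSeq lists the lncRNA Crnde between Irx3 and Irx5.

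The remaining 10 of that set lay near Stom, Setdb2, Unc13b, Syn3, Kat2b, Polr3a, Spred2, Rad51b, Tp53inp1 and Exoc2, with values from 0.105 FPKM near Exoc2 to 9.78 FPKM near Rad51b in hyperlipidemic libraries. Whether these transcripts were missed in normal replicates 1 and 4 was not tested. Of all members, 508 were above 0 in hyperlipidemic libraries alone and 245 in normal libraries alone, and 193 were listed at 0 in normal replicates 1 and 4 and nowhere else. The shares were 16.4%, 7.89% and 6.22% of the members, beside 10.01%, 6.65% and 8.86% of all lncRNAs. They were 14.8%, 10.9% and 7.39% of the lncRNAs farther than 50 kb, and 6.13%, 4.66% and 10.4% of the overlapping ones.

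The highest mean levels, with 1 transcript taken per nearest gene, mostly belonged to forms listed in few libraries. MSTRG.107685.1, 938 bp from Eapp, a phosphoprotein that binds E2F factors, had 0, 2452, 0 and 0 FPKM in hyperlipidemic and 0, 5894, 14238 and 22591 FPKM in normal libraries. The hyperlipidemic value of replicate 2 lay between normal replicates 1 and 2 (limma, log2 change -9.04, adjusted p = 0.583). The sum of its 5 member transcripts was 2947, 2452, 709 and 0 FPKM in hyperlipidemic and 0.0808, 43928, 14238 and 22592 FPKM in normal libraries and did not pass the test (limma, adjusted p = 0.692). The gene-table row of the same locus, a clone-named gene, was listed in every library, at 2991, 2291, 706 and 1017 FPKM in hyperlipidemic and 11881, 33360, 20643 and 31599 FPKM in normal libraries, without overlap. It spans only chr6:75614240-75614403, under 1 kb, whereas MSTRG.107685.1 spans chr6:75590195-75614403. FPKM is scaled by length, and what so short a row measures was not tested. That row was called lower (limma, log2 change -3.92, adjusted p = 0.00485 over all genes), beside 1.24% of all genes called lower.

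Several other high members were listed in 1 library alone. MSTRG.134702.2 near Shroom2 was at 18193 FPKM in normal replicate 1, MSTRG.21298.1 near Arl4d at 9152 FPKM in hyperlipidemic replicate 4, MSTRG.123901.1 near Ick at 4871 FPKM in normal replicate 4, MSTRG.94823.1 near Klrb1b at 3341 FPKM in normal replicate 1 and MSTRG.107674.1 near Snx6 at 3324 FPKM in hyperlipidemic replicate 1. Each was at 0 elsewhere. For MSTRG.21298 the gene-table row of the locus was listed at 16868, 14391, 8579 and 17496 FPKM in hyperlipidemic and 1738, 21022, 40019 and 40855 FPKM in normal libraries. That row is short too, at chr10:89562040-89562230, whereas MSTRG.21298.1 spans chr10:89540112-89562230. The 10 highest members held 37.4% to 84.8% of the summed FPKM of members in hyperlipidemic and 71.4% to 90.8% in normal libraries, so sums over members say little about most of them. MSTRG.91157.20, 44554 bp from Rpia, an enzyme of the pentose phosphate pathway, was the only one of the 8 highest besides ENSRNOT00000086821 with a value above 0 in every library, at 312, 897, 1159 and 18.1 FPKM in hyperlipidemic and 211, 98.8, 188 and 1088 FPKM in normal libraries, with full overlap (limma, adjusted p = 0.966).

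The members next to genes of bone, cartilage, fat, blood and other fixed lists were 82 in number, near 45 genes, and 74 of them were tested. None was called in either direction (limma), and 1 was higher and 1 lower at an unadjusted p under 0.05. The log2 change was above 0 for 48 of 74, with a median of 0.64, beside 0.78 over all lncRNAs. By list, the tested members with a log2 change above 0 were 9 of 15 near bone formation and matrix genes, 1 of 2 near osteoclast genes, 15 of 22 near erythroid and megakaryocyte genes and 6 of 12 near lymphoid genes. They were 6 of 7 near granulocyte and macrophage genes, 6 of 8 near immediate early and clock genes, 2 of 5 near endothelial and stromal niche genes, 2 of 2 near adipocyte genes and 1 of 1 near cartilage genes. No member had a gene of the skeletal muscle list as its nearest.

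Near bone-forming genes the members were low. MSTRG.82124.1, 31571 bp from the 3′ side of Grem1, which encodes an antagonist of bone morphogenetic proteins, had 2.58, 2.20, 1.28 and 1.20 FPKM in hyperlipidemic and 0, 1.57, 3.87 and 0 FPKM in normal libraries. The groups overlapped, and the log2 change was 1.85 with all libraries and -0.50 without normal replicates 1 and 4. MSTRG.42261.1, 46716 bp from the 5′ side of Bmp4, a bone morphogenetic protein, was at 0 in all hyperlipidemic libraries and at 0, 0.222, 4.15 and 0 FPKM in normal libraries.

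The osteoclast neighbours were MSTRG.31081.8, 29911 bp from Tnfrsf11a, the receptor RANK, and MSTRG.81458.1, between Rag1 and Traf6, an adaptor of RANK signalling. The first was assembled in the locus of a gene with a placeholder name, and RefSeq lists Relch between Pign and Tnfrsf11a. It had 2.90, 1.38, 1.72 and 0 FPKM in hyperlipidemic and 0, 2.50, 0.205 and 0 FPKM in normal libraries. The second was at 41.7 FPKM in normal replicate 1 and at 0 in the other 7 libraries. Near Prg4, which encodes the joint lubricant lubricin, MSTRG.32687.1 had 0, 0.370, 5.78 and 2.35 FPKM in hyperlipidemic and 0, 0.190, 0 and 0 FPKM in normal libraries. All 3 overlapped between groups.

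Of the blood cell neighbours, 1 member near Epb41 and 1 near Lmo2 were past an unadjusted p of 0.05 (limma). MSTRG.102259.1, 24739 bp from the 5′ side of Epb41, a protein of the red cell membrane skeleton, had 7.07, 5.94, 13.1 and 11.8 FPKM in hyperlipidemic and 1.14, 3.02, 10.7 and 1.70 FPKM in normal libraries. Normal replicate 3 fell inside the hyperlipidemic range, and the log2 change of 1.63 (limma, adjusted p = 0.663) was 0.65 without normal replicates 1 and 4. The other members near Epb41 differed in direction. MSTRG.102258.1 had a log2 change of 1.37, and MSTRG.102260.1, inside the span of MSTRG.102259.1, had -0.77. Epb41 itself was higher in every hyperlipidemic library, at 108, 72.2, 119 and 111 FPKM, against 46.9, 63.1, 66.8 and 58.2 FPKM in normal libraries, and was not called (limma, log2 change 0.78, adjusted p = 0.176). Erythroid markers (5 of 7) summed to 201 to 368 FPKM in hyperlipidemic and 148 to 320 FPKM in normal libraries.

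MSTRG.81720.3, 5627 bp from Lmo2, a regulator of blood stem cells, was at 0 in all hyperlipidemic libraries and at 0, 0.342, 9.16 and 6.23 FPKM in normal libraries. Its log2 change was -3.67 (limma, adjusted p = 0.662). MSTRG.81720.1 and MSTRG.81720.2, from nearly the same span, had log2 changes of 0.13 and -1.27. The remaining members near Lmo2, MSTRG.81719.1 and MSTRG.81755.2, had 0.26 and 0.43. Lmo2 had 14.9, 11.4, 20.2 and 16.9 FPKM in hyperlipidemic and 2.19, 14.2, 11.9 and 13.4 FPKM in normal libraries, which overlapped. MSTRG.4270.2, 1440 bp from the 3′ side of Cd79a, a chain of the B cell receptor complex, had 0, 0, 0 and 1.46 FPKM in hyperlipidemic and 7.18, 1.83, 2.35 and 0 FPKM in normal libraries. Cd79a had 6.59, 7.19, 16.0 and 19.3 FPKM in hyperlipidemic and 16.7, 21.7, 22.6 and 11.4 FPKM in normal libraries. MSTRG.40043.1, 13583 bp from the 5′ side of Ikzf1, a lymphoid transcription factor, had 1.40, 0.844, 0 and 3.03 FPKM in hyperlipidemic libraries and was at 0 in all normal libraries.

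The other list neighbours named by the rule overlapped between groups as well. MSTRG.69911.1, near Tlr2, a receptor of bacterial lipoproteins, had 4.20, 3.07, 11.3 and 13.3 FPKM in hyperlipidemic and 0, 2.88, 7.68 and 2.91 FPKM in normal libraries (limma, log2 change 2.06, adjusted p = 0.690), or 0.49 on the log2 scale without normal replicates 1 and 4. This member was assembled in the locus of a gene with a placeholder name, and RefSeq lists Tmem131l between Tlr2 and Mnd1. MSTRG.77788.1, 14335 bp from the 5′ side of Notch1, a cell fate receptor, was at 0 in all hyperlipidemic libraries and at 0, 1.88, 6.17 and 0 FPKM in normal libraries. RefSeq lists Mir126a and Mir126b between Notch1 and Egfl7, the genes on each side of it. Those near Erg, Gfi1, Ier3 and Bhlhe40 had log2 changes of -2.61, 2.12, 2.67 and 2.23, each with an adjusted p of 0.690 (limma).

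A single member had a called gene over 1 kb long as its nearest named gene. Esm1, a proteoglycan secreted by endothelial cells, had 11.3, 4.10, 6.68 and 5.11 FPKM in hyperlipidemic and 0, 2.23, 1.05 and 0 FPKM in normal libraries, without overlap. Esm1 was called higher, with a log2 change of 2.20 on FPKM + 1 (limma, adjusted p = 0.0446), beside 0.146% of all genes called higher; the call held in 6 of 18 alternatives, and without normal replicates 1 and 4 the log2 change was 1.52 (limma, adjusted p = 0.274). The member, MSTRG.65114.1, lay 41840 bp from its 3′ side and had 0, 0.388, 0 and 2.60 FPKM in hyperlipidemic libraries and 0 in all normal libraries. Its residual correlation with Esm1 was -0.37 over the 8 libraries. Endothelial markers (3 of 4) summed to 14.3 to 24.8 FPKM in hyperlipidemic and 13.8 to 21.2 FPKM in normal libraries.

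Of the 76 members next to microRNA genes, 75 were tested, 0 were called (limma), and 6 were higher and 0 lower at an unadjusted p under 0.05, or 8% higher beside 6.02% of all lncRNAs. The smallest p was that of MSTRG.89716.1, 49733 bp from Mir29b1, whose mature forms are shown above. It had 3.59, 2.79, 2.14 and 2.92 FPKM in hyperlipidemic and 0, 1.04, 0 and 0 FPKM in normal libraries, without overlap (limma, adjusted p = 0.525). MSTRG.89714.3, also near Mir29b1, had 2.68, 1.76, 1.56 and 5.18 FPKM in hyperlipidemic and 0, 2.01, 0.394 and 0 FPKM in normal libraries, and normal replicate 2 fell inside the hyperlipidemic range.

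MSTRG.51081.1, 4438 bp from Mirlet7d, had 3.34, 2.22, 5.09 and 3.74 FPKM in hyperlipidemic and 0, 0.776, 3.76 and 0 FPKM in normal libraries. Of the 10 members near Mir30c2, which share 2 assembled loci, MSTRG.128284.1 had 3.04, 6.76, 5.76 and 1.72 FPKM in hyperlipidemic and 0, 0, 7.53 and 0.0855 FPKM in normal libraries. For both members normal replicate 3 reached or passed the hyperlipidemic range. MSTRG.32426.1, 19476 bp from Mir181b1, had 7.75, 4.84, 8.18 and 7.74 FPKM in hyperlipidemic and 4.37, 4.29, 9.66 and 6.24 FPKM in normal libraries. Normal replicate 4 fell inside the hyperlipidemic range, replicates 1 and 2 below it and replicate 3 above it.

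Whether a member and its nearest named gene moved together across libraries was described by Pearson's r over the 8 libraries after removal of the group means. Over 2547 pairs that passed both filters the median r was 0.151, with quartiles of -0.164 and 0.446. It was 0.227 over 8190 pairs of lncRNAs overlapping a named gene and 0.127 over 1987 pairs farther than 50 kb. Within the members the median was 0.205 up to 1 kb, 0.150 over 1 to 5 kb, 0.170 over 5 to 20 kb and 0.105 over 20 to 50 kb. On the 5′ side the median was 0.152 and on the 3′ side 0.150. The pairs share 8 libraries, their unknown depths and, for isoforms, sequence, so these values are descriptions with no test.

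The 228 members assembled in the same locus as their nearest gene had a median r of 0.304, against 0.139 for the other 2319. Median-of-ratios scaling lowered the median over all members to 0.0745, and 8.32% of pairs had an r above 0.7.

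**Figure D5:**
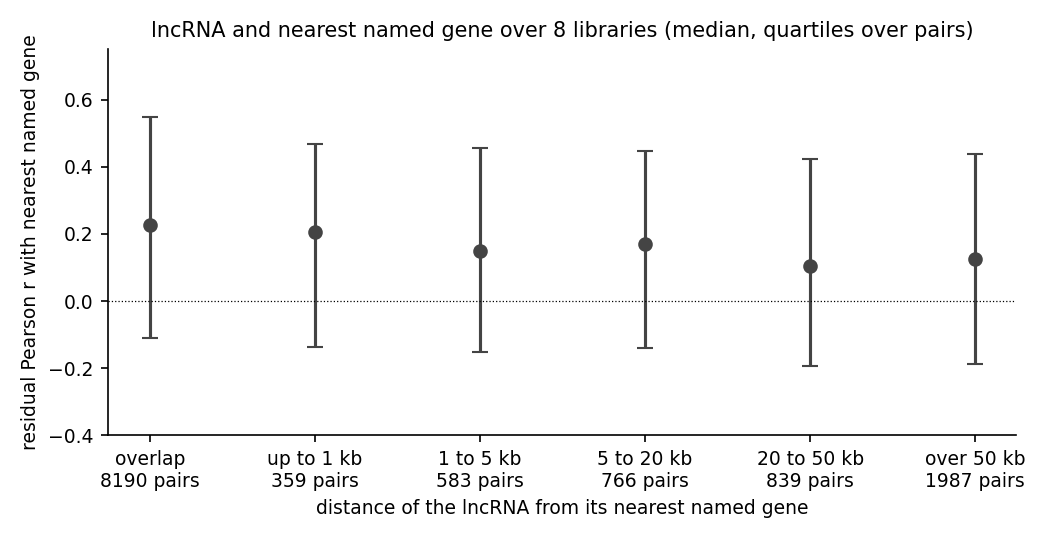
Residual Pearson's r over 8 libraries between a lncRNA and its nearest named gene (y axis) by distance (x axis, with the number of pairs); points are medians over pairs and bars the quartiles. Medians run from 0.227 for overlapping lncRNAs and 0.205 up to 1 kb to 0.105 at 20 to 50 kb, and the quartile ranges overlap throughout.

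The pairs most alike were those with the highest r at means of at least 1 FPKM. ENSRNOT00000086750, 19334 bp from the 5′ side of Dusp1, a phosphatase that switches off MAP kinases, had 3.89, 1.07, 4.10 and 1.03 FPKM in hyperlipidemic and 25.6, 1.41, 5.31 and 0 FPKM in normal libraries. Dusp1 had 11.3, 9.31, 14.7 and 12.4 FPKM in hyperlipidemic and 15.5, 6.36, 8.36 and 1.74 FPKM in normal libraries, and for both normal replicate 1 was highest and normal replicate 4 lowest. Their r was 0.963 and lay between 0.877 and 0.987 when each library was left out.

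MSTRG.130349.1, 36899 bp from the 3′ side of Klf7, a zinc finger transcription factor, was above 0 in every library, at 5.52, 4.28, 3.68 and 3.73 FPKM in hyperlipidemic and 8.45, 3.95, 4.94 and 4.14 FPKM in normal libraries. That distance is taken from a gene row that spans only chr9:70787136-70787913, and the member was assembled in the Klf7 locus. Whether it is part of Klf7 was not tested. Klf7 had 6.66, 5.43, 4.05 and 3.66 FPKM in hyperlipidemic and 9.55, 4.77, 6.40 and 4.86 FPKM in normal libraries, and the r of 0.961 stayed between 0.953 and 0.981. Normal replicate 1 was highest for both, and neither passed the test between groups (limma, adjusted p = 0.868 for the lncRNA and 0.660 for Klf7).

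MSTRG.109645.1 near Dpf3, a subunit of chromatin remodelling complexes, had an r of 0.957, and MSTRG.37856.7 near N4bp2 an r of 0.956. Dpf3 had 5.06, 3.16, 5.45 and 4.96 FPKM in hyperlipidemic and 0.880, 1.74, 3.20 and 2.33 FPKM in normal libraries (limma, log2 change 0.94, adjusted p = 0.274). Its lncRNA, 2557 bp from the 3′ side, had 3.10, 0.633, 2.13 and 3.20 FPKM in hyperlipidemic and 0, 0.746, 2.45 and 1.59 FPKM in normal libraries. The pair of MSTRG.57863.1 with a gene that the table lists by a number in place of a symbol had an r of 0.947. The members near Klf7, Dpf3 and N4bp2 were assembled in the same locus as that gene. These pairs were picked for their r out of 2547, so its size is no test.

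The authors' deposited table calls 187 members up and 242 down, beside 6.54% and 9.27% of all lncRNAs, or 6.02% and 7.80% of the members. In the authors' deposited table the smallest q-value of a member is 0.332, and 0 members have a q-value under 0.05. The authors' deposited table lists a p-value under 0.05 for 209 members, or 6.73%, near the 7.11% of all lncRNAs. Of these 209, 70 have a fold above 1 and 139 a fold below 1. That split runs the other way from the 157 higher and 33 lower members at an unadjusted p under 0.05 in limma on log2(FPKM + 0.1). The authors' deposited table gives MSTRG.18208.6 a fold of 0.0334 and ENSRNOT00000086821 a fold of 0.262, each with a q-value of 0.693.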

How the data were processed

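RNA was depleted of ribosomal RNA and sequenced with the dUTP method as paired reads of 150 bases, per the labels' protocols. Reads were aligned with HISAT2 2.1.0 and assembled with StringTie 1.3.3b on Rnor_6.0, per the submitters' processing notes. The authors deposited FPKM values per transcript and gene for 8 libraries, a fold (ratio) and its log2 for each row, and a p-value and q-value. The labels do not say how FPKM was divided among isoforms, and depth per library is unknown.

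The members and gene lists were chosen with earlier results of these data known. Differences, hyperlipidemic minus normal, were tested with limma 3.58.1 in R 4.3.3 on log2(FPKM + 0.1) for lncRNAs with a mean of at least 0.1 FPKM and on log2(FPKM + 1) for genes with a mean of at least 0.5 FPKM. Variances were moderated with a trend, and p-values were adjusted by Benjamini-Hochberg over each whole table. The scripts were tested on simulated data. Named lncRNAs were those called, those with the largest changes at a mean of at least 1 FPKM and 4 or more libraries above 0, those with the smallest p, the highest means with 1 per nearest gene, the neighbours of listed genes with the smallest p at a mean of at least 0.5 FPKM, the neighbours of called genes and the highest r. Those near Sprtn and microRNA genes, and those above 0 in 1 group alone, were named after their values were seen. Alternatives were another pseudocount, filter, scaling, weighting, window and replicate block, and leaving out each library. Fits without normal replicates 1 and 4, on lncRNAs above 0 in all 8 libraries, without blank gene symbols and on locus sums were chosen after seeing the data. RefSeq on GRCr8 served only for sequences, gene orientation and neighbours, since no coordinates were converted. The circular RNA table was not used here, and 1 locus is not reported here.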

Additional observations from a re-analysis of the deposited data

Results flagged for a closer look

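In 13 of 68 groups of 4 libraries, 1 library stood apart from the other 3 by more than Dixon's critical value, taken on the gap relative to the group's range. Chance gives this in about 1 of 20 groups, and values at 0 in the other libraries make it more frequent.

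The single hyperlipidemic libraries were replicate 3 at 0.000155 FPKM for MSTRG.18208.6, replicate 2 at 2452 FPKM for MSTRG.107685.1 and at 0.226 FPKM for MSTRG.24449.1 near Erg, and replicate 4 at 1.46 FPKM for MSTRG.4270.2 near Cd79a.

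Normal replicate 2 was the single library for 6 members. It was at 12.2 FPKM for MSTRG.22465.2 near Ten1, 0.655 FPKM for MSTRG.24912.1 near Dzip3 and 0.0616 FPKM for MSTRG.30291.1 near Ssh1. It was at 0.699 FPKM for MSTRG.61515.1 near Phlpp2, 0.190 FPKM for MSTRG.32687.1 near Prg4 and 0.992 FPKM for MSTRG.35806.1 near Gfi1. Normal replicate 1 stood apart at 0.0819 FPKM for MSTRG.43565.13 near Kcnrg and at 41.7 FPKM for MSTRG.81458.1 near Traf6, and below the others at 0 FPKM for MSTRG.107685.1 near Eapp.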

How the results depend on the processing

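The count of members called lower, 1 in limma, was 0 with a pseudocount of 1, no filter, a stricter filter, median-of-ratios scaling, no trend, without normal replicates 1 and 4, for lncRNAs above 0 in all 8 libraries, within 10 kb, within 5 kb and with 1 transcript per locus, 2 with array weights, and 0 to 1 with each library left out. The count called higher was 1 under quantile normalization and 0 to 0 with each library left out. Members higher at an unadjusted p under 0.05 were 56 without normal replicates 1 and 4, 14 above 0 in all 8 libraries, 69 within 10 kb, 51 within 5 kb and 89 to 228 with a library left out. Those lower were 61 under quantile normalization, 73 with array weights, 68 without normal replicates 1 and 4, 14 within 10 kb, 8 within 5 kb, 21 with 1 transcript per locus and 23 to 46 with a library left out. The median log2 change ran from 0.57 to 1.11 with a library left out. Over all lncRNAs 12 were called, against 6 with a pseudocount of 0.01, 6 without a filter, 20 under quantile normalization, 3 without a trend, 38 with array weights, 1 without normal replicates 1 and 4, 1 above 0 in all 8 libraries and 1 to 8 with a library left out. The share of members with a log2 change above 0, 68.9%, was 56.8% under quantile normalization and 55.9% without normal replicates 1 and 4. The median r was 0.193 with group means kept, 0.0745 under median-of-ratios scaling and 0.133 to 0.191 with a library left out. MSTRG.82124.1 near Grem1 turned to a log2 change of -0.50 without normal replicates 1 and 4. The smaller windows and 1 transcript per locus hold fewer lncRNAs; otherwise the cause was not tested.

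Residual correlations of same-numbered libraries ran from -0.0188 to 0.0716, and 3 of 8 libraries correlated best with their own number. With no reference values for these measures, a pairing by number can be neither shown nor excluded. With the replicate number as a block, 0 members were called higher and 1 lower, 137 were higher and 31 lower at an unadjusted p under 0.05, and 11 of all lncRNAs were called. Unknown depth limits every value at or near 0.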
